A study of Mus musculus with 2 samples.

Results

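The pancreatic elastases measured here are the 4 genes Cela1, Cela2a, Cela3a and Cela3b of the 27998 genes in the count tables. They were listed by symbol because their levels in acinar cells differed between the libraries in earlier results of these data, so those levels are given as a description and not tested. Acinar cells, the enzyme-secreting cells of the exocrine pancreas, were the barcodes with at least 500 detected genes, at most 10% mitochondrial UMIs and at least 2% of UMIs from Ctrb1, Clps, Cpa1, Cela1 and Reg1 together. UMIs (unique molecular identifiers) count captured transcripts. This rule kept 799 of 3257 cells in the library labelled knockout (24.5%, interval 23.1 to 26.0) and 118 of 2633 cells in the library labelled control (4.48%, interval 3.72 to 5.34). The remaining 2458 knockout-labelled and 2515 control-labelled cells served as a measure of free RNA. Because Cela1 is in the enzyme sum, its own level helped to choose the cells.

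Single cells were measured by droplet 3′ RNA sequencing from C57BL/6 mouse pancreas at embryonic day 18.5, with trypsin used to dissociate the tissue in both groups. The library labelled knockout came from 1 Dpy30∆P pancreas and the library labelled control from 1 control pancreas. Not given in the sources used here were the driver of the deletion, the deleted part of Dpy30 and the genotype of the control. The series asks what catalytic and other activities of trithorax-group complexes do in pancreas progenitors and their descendants, and Dpy30 encodes a subunit shared by those complexes.

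Dpy30 (ENSMUSG00000024067) was not lower in the library labelled knockout. It stood at 160 CPM (counts per 1000000 UMIs) in knockout-labelled acinar cells and at 100.01 CPM in control-labelled acinar cells, a ratio of 1.60 (1.32 to 1.97), and at 144 and 113 CPM over all kept cells. The 3′ tags check the label only if the deletion removes them, which was not tested. The knockout-labelled library held 4779 barcodes with 33048640 UMIs, and the control-labelled library 3986 barcodes with 25398522 UMIs. Xist, the RNA of the inactive X chromosome, had 48052 UMIs in the knockout-labelled library and 1 in the control-labelled library. Ddx3y, of the Y chromosome, had 0 and 1624 UMIs in those libraries, so sex and genotype cannot be told apart. Per the labels, knockout-labelled cells were taken up in 250 µL and control-labelled cells in 500 µL before loading, and this too cannot be told apart from genotype. The libraries shared 27 barcodes, of which 4 were acinar cells in the knockout-labelled library and 0 in the control-labelled library. With 1 library in each group no difference has a replicate check, and every interval is a 95% interval for counting error only.

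Elastases are serine proteases that acinar cells store in zymogen granules as inactive precursors. After secretion into the gut, trypsin cuts the precursors and the active enzymes digest dietary protein. Cela1 cleaves after small residues and Cela2a after larger hydrophobic ones, and the human CELA3 enzymes digest elastin poorly despite the family name. In humans CELA1 is known to be silent in adult acinar cells, whereas in rodents it is a main pancreatic elastase.

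Cela1 (ENSMUSG00000023031) spans chr15:100674421-100687921 on the minus strand of GRCm38. Cela2a (ENSMUSG00000058579) lies at chr4:141814962-141826160. Cela3a (ENSMUSG00000078520) lies at chr4:137401554-137409791, and Cela3b (ENSMUSG00000023433) lies 11.2 kb away at chr4:137420999-137430540, all on the minus strand. The 250 bases before the RefSeq start (GRCm38.p6) are shown for Cela1, the elastase with most UMIs in knockout-labelled acinar cells, and for the neighbours Cela3a and Cela3b. Over all acinar cells the levels of these neighbours differed in opposite directions between the libraries, but not in every subset of acinar cells given below. The stretches shown cover chr15:100687921-100688170, chr4:137409792-137410041 and chr4:137430521-137430770, read 5′ to 3′ on the minus strand. Capitals mark 4 short motifs found on either strand: CACCTG, an E-box form bound by bHLH factors such as Ptf1a, TTTCCC, a core bound by Rbpj and Rbpjl, GATAAG, bound by GATA factors, and AAGGTCA, bound by Nr5a2.
Cela1: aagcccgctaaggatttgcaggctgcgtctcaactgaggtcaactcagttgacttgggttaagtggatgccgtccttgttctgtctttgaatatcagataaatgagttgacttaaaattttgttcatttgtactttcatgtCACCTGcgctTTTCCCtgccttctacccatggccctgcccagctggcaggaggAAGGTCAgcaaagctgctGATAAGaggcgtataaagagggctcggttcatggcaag
Cela3a: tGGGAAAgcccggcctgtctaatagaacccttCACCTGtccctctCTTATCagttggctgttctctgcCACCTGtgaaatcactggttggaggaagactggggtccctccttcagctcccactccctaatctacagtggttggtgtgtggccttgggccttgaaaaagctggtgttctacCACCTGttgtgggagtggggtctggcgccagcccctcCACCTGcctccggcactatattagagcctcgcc
Cela3b: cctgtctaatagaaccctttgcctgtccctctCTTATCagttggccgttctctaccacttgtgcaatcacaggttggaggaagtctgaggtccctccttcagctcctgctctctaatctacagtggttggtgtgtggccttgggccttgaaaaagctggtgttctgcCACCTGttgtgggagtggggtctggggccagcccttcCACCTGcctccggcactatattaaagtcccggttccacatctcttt
The Cela1 stretch held all 4 motifs, at 109 (CACCTG), 99 (TTTCCC), 56 (AAGGTCA) and 38 (GATAAG) bases before the start. Of 32851 mouse promoters in the same table, 7 (0.02131%) held all 4 within the same length. CACCTG was in 17.22%, TTTCCC in 21.95%, GATAAG in 6.548% and AAGGTCA in 4.079% of those promoters. Cela3a had CACCTG at 4 places and Cela3b at 2. The TTTCCC of Cela3a lies 249 bases before the start, at the edge of the window, so its absence from the Cela3b stretch may only reflect where that window ends. Aligned with gaps allowed, the Cela3a and Cela3b promoters were 87.6% identical, whereas the other pairs of elastase promoters were 56.8% to 59.6% identical. Unrelated promoters were not aligned for comparison. The Cela3b stretch overlaps the annotated gene from chr4:137430521 to chr4:137430540, and the Cela1 stretch overlaps its gene by its last base. The Cela2a stretch, which overlaps annotated transcript over more of its length, is not printed; it held each motif but AAGGTCA. A match is a stretch of letters and not evidence that a factor binds.

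Cela1 was the elastase with most UMIs in knockout-labelled acinar cells. Its level was 12319 CPM in knockout-labelled acinar cells (109172 UMIs) and 2939 CPM in control-labelled acinar cells (3115 UMIs), a ratio of 4.19 (4.04 to 4.35). Single knockout-labelled acinar cells held between 0 and 1557 Cela1 UMIs with a median of 61, and control-labelled acinar cells held between 0 and 232 with a median of 17. The ranges overlap from 0 to 232 UMIs. A Cela1 UMI was found in 99.9% of knockout-labelled acinar cells and in 94.9% of control-labelled acinar cells. Over the 720 knockout-labelled and 109 control-labelled cells with at least 2000 UMIs, each thinned to 2000, these shares were 98.6% (97.5 to 99.3) and 90.8% (83.8 to 95.5).

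Cela2a and Cela3b stood the other way. Cela2a was at 1750 CPM in knockout-labelled acinar cells and at 3922 CPM in control-labelled acinar cells, 2.24-fold lower (2.17 to 2.32), with a median of 5 UMIs a cell (0 to 465) and of 15.5 (0 to 330). Cela3b was at 5230 and 7457 CPM, 1.43-fold lower (1.39 to 1.46) in knockout-labelled cells, with medians of 24 (0 to 566) and 45.5 (0 to 387) UMIs a cell. For both genes the ranges of the libraries overlap over most of their length.

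Cela3a was the least abundant. It had 616 UMIs (69.5 CPM) in knockout-labelled acinar cells and 2 UMIs (1.89 CPM) in control-labelled acinar cells, a ratio of 36.8 with a wide interval (10.2 to 305). It was found in 34.3% of knockout-labelled acinar cells, at most 11 UMIs a cell, and in 1.69% of control-labelled acinar cells, at most 1. Thinned to 2000 UMIs a cell, 13.6% of 720 knockout-labelled cells and 0 of 109 control-labelled cells had a Cela3a UMI. For 0 of 109 the floor of 3 counts is a share of 2.75%, and the upper 95% limit is 3.33%. Cela3a had no UMI in 122 knockout-labelled endothelial-like cells (median 7635.5 UMIs a cell) or in 182 control-labelled ones (7981 UMIs). In mesenchymal-like cells 0.610% of the knockout-labelled and 0% of the control-labelled cells had a UMI (medians 5320.5 and 5730 UMIs).

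Together the 4 elastases took 19369 CPM in knockout-labelled acinar cells and 14320 CPM in control-labelled acinar cells, a ratio of 1.35 (1.33 to 1.38). Among the 4, 2 (Cela1 and Cela3a) were over 2-fold higher and 1 (Cela2a) was over 2-fold lower. Over all 10496 genes with at least 20 UMIs in acinar cells, 10.2% were over 2-fold higher and 4.24% were over 2-fold lower in the knockout-labelled library. As the members were chosen from these levels, their count is not read against those shares. Acinar cells held medians of 9698 and 5892.5 UMIs, and the enzyme sum had medians of 7.85% and 13.1% of UMIs in the knockout-labelled and control-labelled library. The knockout-labelled cells were deeper by the median and less rich in the summed enzymes. Over cells with at least 2000 UMIs, each thinned to 2000, the Cela1 ratio was 3.41. Thinning also gives each cell the same weight, and the ratio of means over unthinned cells was 3.50.

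**Figure D1:**
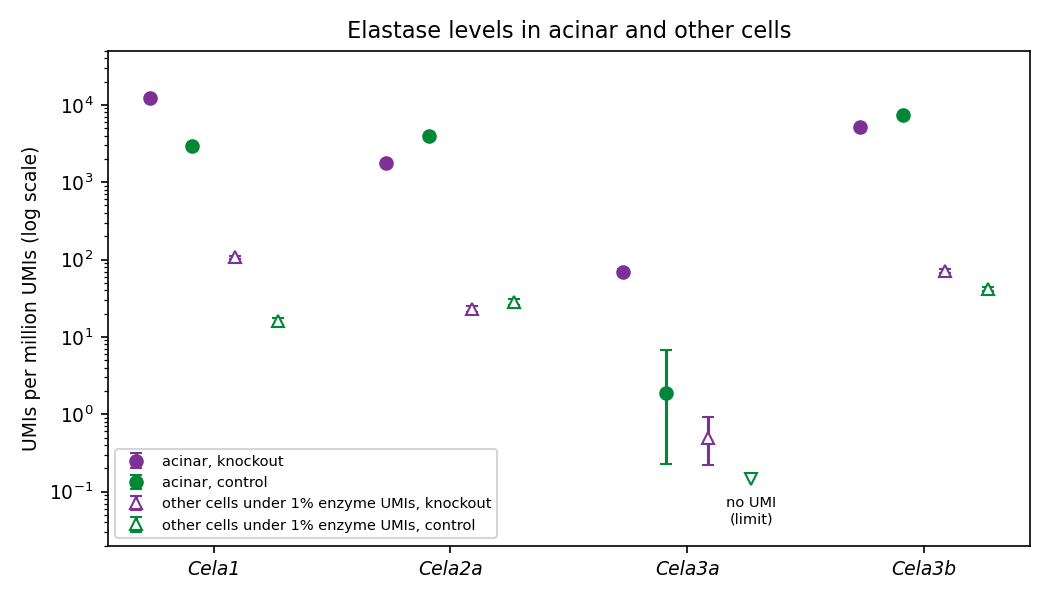
Level of each elastase in CPM on a log axis, in acinar cells (filled circles) and in other cells under 1% enzyme UMIs (open triangles) of the knockout-labelled and control-labelled library, with 95% counting intervals and a downward triangle at the floor of 3 UMIs where no UMI was found. In acinar cells Cela1 stands at 12319 CPM in the knockout-labelled library and 2939 CPM in the control-labelled library, and Cela2a at 1750 and 3922 CPM. Of the 1975 Cela1 UMIs of the knockout-labelled other cells shown, 854 came from 21 cells grouped with acinar clusters 3 and 4.

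**Figure D2:**
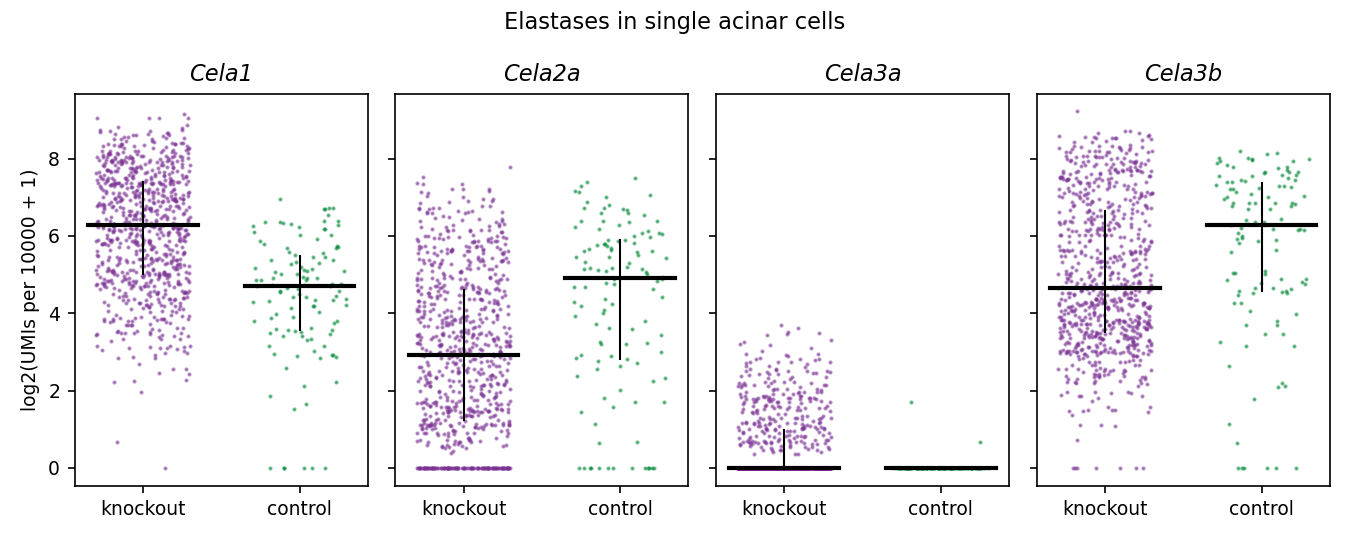
UMIs of each elastase per 10000 UMIs of a cell, as log2 with 1 added, each point being 1 of 799 knockout-labelled or 118 control-labelled acinar cells, with the median (thick bar) and the interquartile range (thin line). Before the log, the Cela1 medians are 76.8 per 10000 in knockout-labelled and 25.2 in control-labelled cells, and those of Cela2a 6.63 and 29.2.

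The composition of elastase RNA differed between the libraries. Cela1 made up 63.6% of elastase UMIs in knockout-labelled acinar cells and 20.5% in control-labelled acinar cells, Cela2a 9.03% and 27.4%, and Cela3b 27.0% and 52.1%. A 3′ tag counts transcript ends, so gene length was not divided out, but capture may differ between genes.

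The libraries also differed in which elastase was most abundant in single cells. Cela1-led cells, with more Cela1 than Cela2a plus Cela3b UMIs, were 482 of 799 knockout-labelled acinar cells (60.3%, 56.8 to 63.7) and 13 of 118 control-labelled acinar cells (11.02%, 6.00 to 18.1). With an enzyme sum of at least 5% these shares were 53.5% and 6.32%. Within the main set, 61 knockout-labelled cells (7.63%) and 14 control-labelled cells (11.9%) were within 2-fold of equality. Counting with 1 UMI added to each side, Cela1 outweighed the other pair at least 4-fold in 46.2% of knockout-labelled acinar cells and in 3.39% of control-labelled acinar cells. The other pair outweighed Cela1 at least 4-fold in 27.9% of knockout-labelled cells and in 59 of the 118 control-labelled cells. The histogram of the log2 ratio of Cela1 to the other pair, with 1 UMI added to each side, had 2 peaks in the knockout-labelled library: 17.0% of cells lay between -3 and -2 and 19.3% between 3 and 4, with 3.13% between -1 and 0. Control-labelled cells had a single peak, with 36.4% between -3 and -2.

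**Figure D3:**
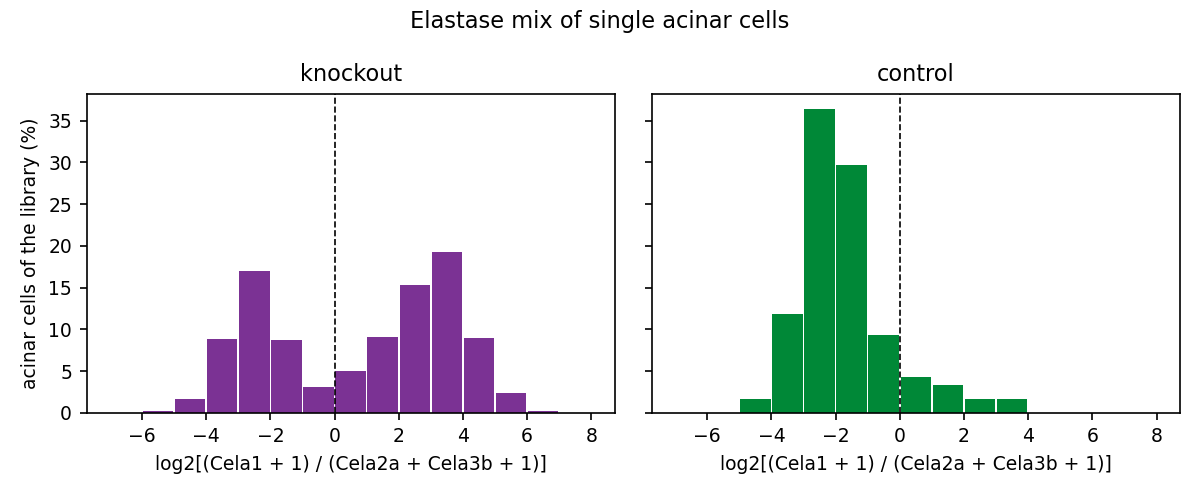
Percent of acinar cells (y axis) by the log2 ratio of Cela1 to Cela2a plus Cela3b UMIs, with 1 added to each, in bins of 1 (x axis), for each library. The knockout-labelled library has peaks of 17.0% of cells at -3 to -2 and 19.3% at 3 to 4, and the control-labelled library has 1 peak of 36.4% at -3 to -2.

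The 317 knockout-labelled acinar cells that were not Cela1-led had Cela1 and Cela2a levels nearer those of the control-labelled library than all acinar cells together had, but not Cela3a and Cela3b levels. Cela1 was at 3239 CPM in these cells and at 3210 CPM in the 105 control-labelled cells that were not Cela1-led, a ratio of 1.01 (0.967 to 1.05). Cela2a was at 4353 and 4710 CPM, 1.08-fold lower (1.04 to 1.12) in knockout-labelled cells. Cela3b was at 12960 and 9007 CPM, a ratio of 1.44 (1.40 to 1.47), which is the opposite direction from that over all acinar cells. Cela3a was at 166 and 2.31 CPM, a ratio of 71.9 (19.8 to 595). The split used the same counts as these levels, so the level of Cela1 in this subset is partly fixed by it. The few Cela1-led cells of the control-labelled library were low in all elastases: together the 4 stood at 18711 CPM in Cela1-led knockout-labelled cells and at 2649 CPM in the 13 Cela1-led control-labelled cells, and Cela1 at 16747 and 1725 CPM, a ratio of 9.71 (8.72 to 10.8).

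A grouping of cells that did not use the elastases gave a like division without that constraint. Cells were clustered on variable genes with 37 listed enzyme and granule genes left out. Gm10334 and the kallikrein Klk1, ranked below among the genes most like Cela1, were not among those left out. The grouping is therefore not free of genes that vary with Cela1. The acinar cells of cluster 3 numbered 366 knockout-labelled and 3 control-labelled cells, and in them Cela1 stood at 17259 CPM among knockout-labelled cells, of which 357 were Cela1-led. Cluster 4 held 325 knockout-labelled and 104 control-labelled acinar cells. There Cela1 was at 3961 and 3205 CPM, a ratio of 1.24 (1.19 to 1.29), Cela2a at 4051 and 4364 CPM, Cela3a at 155 and 2.15 CPM, and Cela3b at 11931 and 8316 CPM, a ratio of 1.43 (1.40 to 1.47). Most of the remaining cells, 100 knockout-labelled and 7 control-labelled, were in an unnamed cluster of shallow cells (medians 1495 and 2213 UMIs).

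Within the knockout-labelled library, Cela1-led cells had 16747 CPM of Cela1 against 3239 CPM in the rest, and 480 CPM of Cela2a against 4353 CPM, 1461 CPM of Cela3b against 12960 CPM, and 22.5 CPM of Cela3a against 166 CPM. For Cela1, Cela2a and Cela3b these contrasts follow from how the cells were split, which did not use Cela3a. Other genes outside the split also differed between the subsets and were named by a fixed rule. Higher in Cela1-led cells were Reg1, a secreted lectin, at 9485 CPM against 481 CPM (19.7-fold), Pla2g1b, a secreted phospholipase (18.4-fold), Ckm, muscle creatine kinase (42.1-fold), Serpina16 (29.7-fold), Reg3g (17.8-fold), Reg2 (26.2-fold), the trefoil peptide Tff3 (20.2-fold) and Dct, dopachrome tautomerase (16.0-fold). Reg1 and Clps are in the enzyme sum that chose the cells. Lower in Cela1-led cells were Clps, the lipase cofactor (6.98-fold lower), Pnliprp1, a lipase-related protein (5.71-fold), Cpb1, a carboxypeptidase (5.31-fold), Cckar, the cholecystokinin receptor (5.60-fold), Fkbp11, an ER folding enzyme (5.41-fold), Scd2, a fatty acid desaturase (5.39-fold), the RNA Snhg18 (7.63-fold) and Lyz2, a lysozyme of myeloid cells (24.6-fold). The myeloid marker list stood at 97.2 CPM in Cela1-led cells and at 216 CPM in the others, with all 9 genes detected in both, and its part in these differences was not tested.

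Cela1 varied across cells against Cela2a and Cela3b in the knockout-labelled library and with them in the control-labelled library. Spearman's rho of Cela1 with Cela2a was -0.291 over 799 knockout-labelled acinar cells and 0.654 over 118 control-labelled acinar cells, and with Cela3b -0.452 and 0.732. Cela2a and Cela3b varied together in both libraries, with rho of 0.724 and 0.742. Cells of 1 library share its depth and free RNA, and each cell's own total divides both genes. Thinned to 2000 UMIs a cell, rho with Cela2a was -0.328 and 0.588. Within the 482 Cela1-led knockout-labelled cells rho of Cela1 with Cela2a was 0.310, and within the 317 others it was 0.559, but the subsets were split on the very counts that rho compares, so the sign inside them is not read as a relation. In clusters, which did not use the elastases, rho of Cela1 with Cela2a was 0.313 in cluster 3 and 0.263 in cluster 4 of the knockout-labelled library, against 0.620 in cluster 4 of the control-labelled library. With Cela3b it was 0.324 and 0.149, against 0.694, and the weak value of 0.149 is not read as a relation. Cela1 and Cela2a were detected together in 85.9% of knockout-labelled acinar cells (686 cells) and in 85.6% of control-labelled acinar cells (101 cells).

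**Figure D4:**
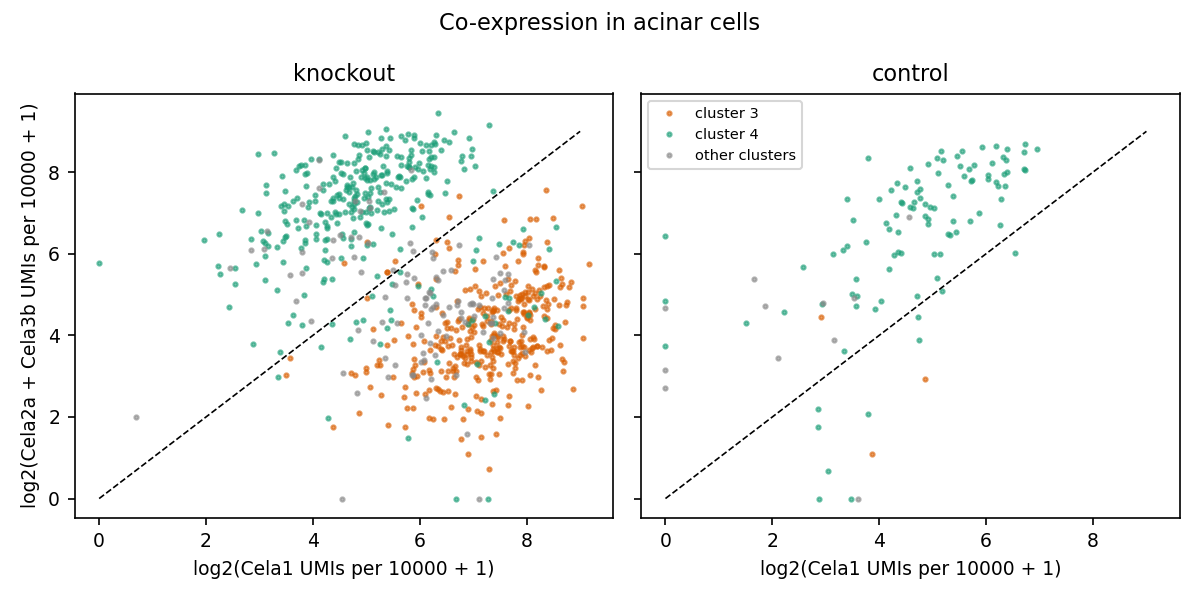
UMIs of Cela1 (x axis) and of Cela2a plus Cela3b (y axis) in single acinar cells, each as log2 of UMIs per 10000 plus 1, in the knockout-labelled library (cells coloured by cluster 3, cluster 4 or other) and the control-labelled library. Below the dashed line of equality lies a knockout-labelled cloud made mostly of cluster 3 (357 of its 366 cells Cela1-led), above it lie most cluster 4 cells, and control-labelled cells are mostly above the line (13 of 118 Cela1-led).

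Other genes were ranked by the smaller of their 2 rho values with each elastase among 4909 genes. Most like Cela1 were Cel, the bile salt lipase (rho 0.680 in the knockout-labelled library and 0.634 in the control-labelled library), the trypsinogen Prss3 (0.746 and 0.490), the kallikrein Klk1 (0.485 and 0.595), Gm10334 (0.746 and 0.466) and the trypsinogen Prss1 (0.446 and 0.436). Trypsinogen genes have near-identical copies, so reads may be split among them. Reg1 followed Cela1 in the knockout-labelled library (0.777) but not in the control-labelled library (0.054). Most like Cela2a and Cela3b, besides each other, were Pnliprp1 (0.724 and 0.700 with Cela2a, 0.806 and 0.780 with Cela3b), Clps (0.699 and 0.730 with Cela2a), the chymotrypsinogen Ctrb1 (0.598 and 0.786 with Cela2a) and Fkbp11 (0.592 and 0.480 with Cela2a). For Cela3a the leading genes (Rdx, Gstt2, Reep5 and Mt1) had lower rho values of 0.199 or less, which rest on 2 control-labelled UMIs and are not read as likeness.

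Cela3a and Cela3b did not keep a fixed proportion. Knockout-labelled acinar cells had 13.3 Cela3a UMIs per 1000 Cela3b UMIs (12.3 to 14.4), against 0.253 (0.031 to 0.914) in control-labelled acinar cells. The proportion was 15.4 (12.9 to 18.2) in Cela1-led and 12.8 (11.69 to 13.999) in the other knockout-labelled acinar cells, with overlapping intervals, whereas Cela3b itself was 8.87-fold lower in the Cela1-led cells. The transcripts of these neighbouring genes are 90.7% identical, and of 251 windows of 50 bases in the last 300 bases of Cela3a, 74 are shared exactly with Cela3b, so tags from shared stretches could not be assigned to either gene. Whether such tags were dropped or moved between the genes was not tested.

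Elastase UMIs outside acinar cells served as the measure of free RNA in droplets. In other cells with under 1% of UMIs from the enzyme sum, Cela1 was at 107 CPM in the knockout-labelled library and at 16.0 CPM in the control-labelled library, Cela2a at 23.0 and 28.1 CPM, Cela3a at 0.486 and 0 CPM, and Cela3b at 71.2 and 41.6 CPM. The knockout-labelled Cela1 value is not free RNA alone. Of its 1975 UMIs, 854 came from 21 cells grouped with the acinar clusters 3 and 4, described above. The control-labelled set had 0 such cells. The acinar level was 27.5 times that of all other cells for Cela1 in the knockout-labelled library and 165 times in the control-labelled library. Of the Cela1 UMIs of other knockout-labelled cells, 84.2% came from 65 cells of cluster 3 that missed the 2% threshold, with a median enzyme share of 1.26% and 20475 UMIs. Just inside the threshold (2% to 3%) 57 knockout-labelled cells had a median of 103 Cela1 UMIs, and just outside (1% to 2%) 54 had a median of 111. In the control-labelled library these medians were 1 UMI in 10 cells and 0 in 25 cells.

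The mix in other cells leaned the same way as that of acinar cells. Cela1 made up 40.4% of elastase UMIs in mesenchymal-like knockout-labelled cells and 19.3% in control-labelled ones, and in ductal-like cells 34.2% and 18.4%. The myeloid-like cells of the control-labelled library departed from this, with 36 of 51 elastase UMIs from Cela1 (70.6%, 56.2 to 82.5), against 54.5% of 101 UMIs in the knockout-labelled library. Their Cela1 level was 88.5 CPM (66.6 to 115) in the knockout-labelled library and 67.9 CPM (47.5 to 94.0) in the control-labelled library, whereas mesenchymal-like cells had 64.8 and 10.9 CPM. A Cela1 UMI was found in 36.3% of knockout-labelled and 33.3% of control-labelled myeloid-like cells (medians 6007.5 and 5750.5 UMIs a cell), and in 29.5% and 6.12% of mesenchymal-like cells (5320.5 and 5730 UMIs).

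**Figure D5:**
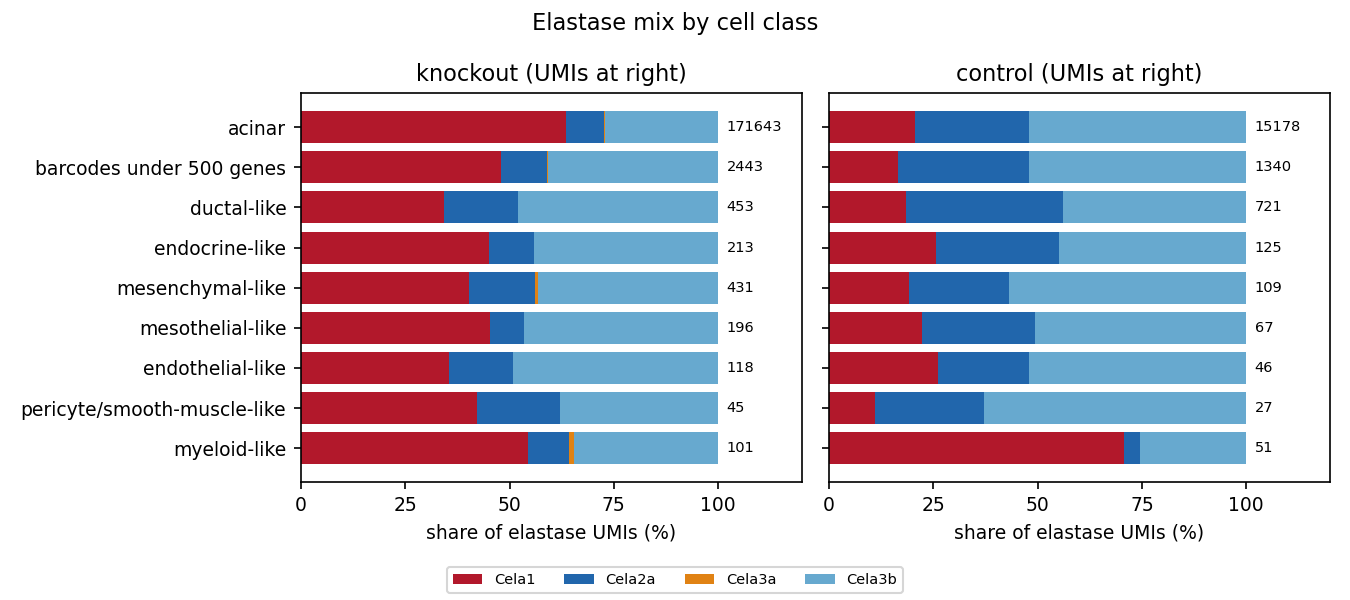
Share of elastase UMIs from each gene (x axis, percent) by cell class, with the number of elastase UMIs at the right of each bar, for the knockout-labelled library and the control-labelled library. Cela1 takes 63.6% of acinar elastase UMIs in the knockout-labelled library and 20.5% in the control-labelled library, and in myeloid-like cells 54.5% and 70.6%.

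The acinar cells of both libraries had the markers that the rule did not use. The 14 markers in the files summed to 38123 CPM in knockout-labelled and 46985 CPM in control-labelled acinar cells, against 996 and 213 CPM in the other cells. All 14 had UMIs in the acinar cells of both libraries. Detection alone does not set acinar cells apart, as 14 and 13 of them had UMIs in the other cells. The transcription factor Ptf1a, which drives acinar identity, was at 223 and 162 CPM in acinar cells, against 19.1 and 0.382 CPM in other cells. Markers of red cells stood at 5084 and 1258 CPM in acinar cells (6 of 6 detected in both), those of endocrine cells at 266 and 1749 CPM (14 of 14 and 13 of 14, with Fev at 0 in the control-labelled library) and those of ductal cells at 1602 and 2005 CPM (9 of 10 in both, with Cftr at 0). Their part in the elastase differences was not tested.

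Other granule genes were counted from lists of known members, and each count stands beside the shares over all 10496 genes, of which 10.2% were over 2-fold higher and 4.24% over 2-fold lower. Those shares depend on the genes and totals used. Over the 6123 genes with at least 100 UMIs they were 5.81% and 1.52%. With totals free of enzyme and granule genes they were 8.98% and 5.34% of the 10496 genes. Ctrb1, Cpa1, Clps and Reg1 in these lists are in the enzyme sum that chose the acinar cells. Their own levels helped to choose the cells, so they are not an independent part of the counts. Of 9 trypsinogen and chymotrypsinogen genes, 5 were over 2-fold higher, 0 over 2-fold lower and the median log2 ratio was 1.06, against 0.11 over all 10496 genes. Ctrc, a chymotrypsin, was at 567 CPM in knockout-labelled and at 5.66 CPM in control-labelled acinar cells (6 UMIs), a ratio of 100.2 (46.0 to 273). Ctrl was at 227 and 30.2 CPM, Try5 at 8667 and 4759 CPM, and Ctrb1, the most abundant, at 48916 and 74352 CPM, a ratio of 0.658 (0.653 to 0.663). Of 5 measured carboxypeptidases and amylases, 0 were over 2-fold higher and 2 over 2-fold lower (10.2% and 4.24% of all genes), Cpa1 (2.76-fold lower) and Cpb1 (2.17-fold lower). The list's median log2 ratio was -0.20.

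Of 6 lipases and cofactors, 1 was over 2-fold higher and 2 over 2-fold lower, against 10.2% and 4.24% of all genes, with a median log2 ratio of -0.19, against 0.11 over all genes. Pla2g1b was at 231 and 10.4 CPM, a ratio of 22.3 (12.4 to 44.7), whereas Clps was 2.92-fold lower and Pnliprp1 2.11-fold lower in knockout-labelled acinar cells. Of 13 secreted granule and lectin genes, 6 were over 2-fold higher (10.2% of all genes were) and 0 over 2-fold lower (4.24%), with a median log2 ratio of 0.98. Reg1 was at 6534 and 564 CPM, a ratio of 11.6 (10.7 to 12.6), Reg3d had a ratio of 24.5 (9.53 to 90.1), and Reg3b, with 782 UMIs and 0, was at least 31.2-fold higher against a floor of 3 UMIs over the control-labelled cells (25.3-fold by the lower counting limit). The trypsin inhibitor Spink1 had a ratio of 1.21. Of 13 acinar transcription factors, 1 was over 2-fold higher, Gata4 (2.18, interval 1.22 to 4.29), and 0 were over 2-fold lower, with a median log2 ratio of 0.12. That count is near the background of 10.2% higher and 4.24% lower and is not a result about the list. Rbpjl, the acinar partner of Ptf1a, had a ratio of 1.09, Xbp1, a regulator of the secretory pathway, 1.23, and Tcf3 0.570. Of 6 measured inhibitors of elastases and other serine proteases, 2 were over 2-fold higher and 1 over 2-fold lower, against 10.2% and 4.24% of all genes, and the median log2 ratio was 0.43. Wfdc2 was 2.10-fold lower (1.66 to 2.64) and Serpina1c, with 122 and 7 UMIs, had a ratio of 2.08 whose interval holds 1 (0.982 to 5.29), and Serpini2 had a ratio of 0.863. Slpi, A2m and 4 others had under 20 UMIs.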

How the data were processed

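Per the file headers, the deposited counts are UMI counts from Cell Ranger 3.0.0; per the submitters' processing notes, the builds were mm10 and GRCm38, and Seurat 2 and 3 were used. The fraction of cells with each gene, a p-value and a score (average log fold change) per gene and cluster come from the authors' deposited table, whose test is not given in the sources used here. Elastases, gene lists, markers, named genes and tests were chosen with earlier results of these data known. Barcodes were filtered as stated in the report and doublets stayed in. The elastases were named by their rule; other named genes were the 5 most alike by the lower rho (detected in at least 10% of acinar cells in both libraries), the 8 furthest each way between Cela1-led and other knockout-labelled cells, and of each list the 2 with most UMIs and the 2 furthest from 1 (at least 100 UMIs). Intervals are exact Poisson, Clopper-Pearson or conditional binomial. Cells were clustered by Leiden on 30 components and 15 neighbours. On simulated counts of 10477 genes, the interval for knockout-labelled over control-labelled acinar cells held 1 for 96.7% of genes left unaltered. Those counts were drawn with counting error only, as the interval assumes, so this does not check for spread between cells or animals. Of the authors' table, 1 column was not used. RefSeq gave promoters and GENCODE gene positions. A gene that the rule names is not reported here. Alternatives changed the cell rule, minimum genes, thinning, free RNA, doublets, shared barcodes, totals, clusters and the minimum of UMIs. Tools were scanpy 1.11.5, SciPy 1.17.1, scikit-learn 1.9.0, matplotlib 3.10.9, leidenalg 0.10.2, pandas 2.3.3, igraph 0.11.9, Python 3.11.15 and NumPy 2.4.6.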

Additional observations from a re-analysis of the deposited data

Results flagged for a closer look

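Barcodes with under 500 detected genes were left out of the comparisons, and elastase RNA was counted in them too. Cela1 stood at 274 CPM in the 1465 such barcodes of the knockout-labelled library and at 69.0 CPM in the 1290 of the control-labelled library. Cela3a stood at 1.87 CPM (8 UMIs) in the knockout-labelled barcodes and had 0 UMIs in the control-labelled ones. Cela2a was at 63.1 and 130 CPM and Cela3b at 232 and 217 CPM. These levels lie outside the main measurement and above those of the control-labelled library for Cela1 and Cela3a.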

How the results depend on the processing

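No alternative reversed the direction of an elastase ratio over the acinar cells as a whole. The Cela3b ratio was 0.701 there, but 1.43 within cluster 4 and 1.44 in cells that were not Cela1-led, so its direction depends on the mix of cells. Leaving out doublets called by Scrublet or barcodes found in both libraries moved none of the values tested. Leaving Cela1 out of the enzyme sum gave a Cela1 share of elastase UMIs of 61.6% in the knockout-labelled library and ratios of 0.484 for Cela2a and 0.756 for Cela3b. With an enzyme sum of at least 5% the share was 60.2%, Cela1-led cells were 53.5% in the knockout-labelled and 6.32% in the control-labelled library, rho of Cela1 with Cela2a and Cela3b was -0.397 and -0.582 in the knockout-labelled library and 0.5501 for Cela2a in the control-labelled library, and the Cela2a and Cela3b ratios were 0.496 and 0.763. With at least 1000 detected genes the shares were 64.7% and 21.2%, and the ratios 4.43 for Cela1, 0.465 for Cela2a and 0.746 for Cela3b. Thinned to 2000 UMIs the shares were 55.3% and 19.2% and those ratios 3.41, 0.487 and 0.721, and Cela3a had no control-labelled UMI and so no ratio. Subtracting the level of all other cells, taken as free RNA, gave a share of 63.2%. For Cela1 in the knockout-labelled library, 84.2% of the UMIs behind that level came from cluster 3 cells that missed the 2% threshold. The Cela1 level subtracted there was therefore not free RNA alone. With totals free of enzyme and granule genes rho with Cela3b was -0.348 and the 3 ratios were 3.94, 0.419 and 0.659. As means over cells they were 3.50, 0.475 and 0.729. In clusters 3 and 4 alone, an alternative chosen after seeing the data like those on shared barcodes and on rho with enzyme-free totals, the share was 63.9% and the ratios 4.02, 0.424 and 0.665. With at least 100 UMIs a gene, which leaves 6123 genes, 356 genes were over 2-fold higher and 93 over 2-fold lower, against 1067 and 445. The cause of these shifts was not tested beyond the smaller number of genes. No paired analysis was possible because each group has 1 library. Depth limits Cela3a most, which rests on 2 control-labelled UMIs.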

Other observations

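In the authors' deposited table of cluster genes, Cela1 is listed for cluster 2, with a UMI in 87.4% of its cells, at rank 44 of 261. Cela2a and Cela3b are listed for cluster 11, where Cela2a had a UMI in 94.7% of cells (rank 3 of 29) and Cela3b in 64.5% (rank 20 of 29), in the authors' deposited table. Cela1 and the Cela2a and Cela3b pair are therefore listed for different clusters in that table.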
